A study of Caenorhabditis elegans with 3 samples.

Results

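The cytochrome P450 (cyp), glutathione S-transferase (gst) and UDP-glucuronosyltransferase (ugt) genes of Caenorhabditis elegans were examined for binding of ELT-3, a GATA factor of the worm epidermis. Members were the protein-coding genes of the Ensembl annotation whose symbol starts with gst-, ugt- or cyp- and a digit, with gst-4 left out. The rule gave 184 genes of 19973 protein-coding genes, comprising 74 cyp, 43 gst and 67 ugt genes. It used symbols and no measured value. Binding was mapped by ChIP-seq, where chromatin carrying the tagged protein is enriched with an antibody and its DNA sequenced, in whole L1 larvae, the earliest larval stage.

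All samples formed 1 group, so there was no other genotype, treatment or time to compare with. The worms were of strain OP75, genotype unc-119(ed3) III with the transgene wgIs75, which expresses ELT-3 with a C-terminal GFP-FLAG tag, and males and females were pooled. Age within the stage is not stated, the transgene adds to the native gene, and whole animals give no cell type for a peak. Biological replicate 1 was 1 library and biological replicate 2 was 2 technical libraries with 1 peak list. The files are peak lists without read counts, so depth is unknown and no difference between samples could be tested.

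The 3 families handle foreign and internal small molecules in successive steps. P450 enzymes oxidise a lipophilic compound with electrons from a reductase, glutathione S-transferases join glutathione to reactive compounds, and UDP-glucuronosyltransferases join a sugar from a UDP-sugar donor. ABC transporters then export the products. In the worm many of these genes lie in tandem arrays and are known for induction by toxins and for activity in the intestine and the epidermis, where factors such as SKN-1 control part of them.

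Peaks in the list that passed the irreproducible discovery rate filter (the IDR list, 1202 peaks) were taken as the main calls, and all 10082 peaks called on the pooled alignments as a deeper list. The IDR peaks are the strongest peaks of the pooled list, whose weakest entries have q-values of up to 0.961. Signal is the authors' own score per peak, on nearly the same scale in the IDR, pooled and replicate 1 lists and on another in replicate 2. The replicate 2 list looks differently made, with 596 bp peaks, signals of at most 10.5 and q-values ending at 0.00371. The replicate 1 list has 296 bp peaks and q-values up to 0.96. Why a peak is missing from the replicate 2 list, through how it was called or otherwise, was not tested. The IDR signals ran from 35.5 to 276, with a median of 48, and all 1202 IDR peaks overlapped a replicate 1 peak whereas 117 (9.73%) overlapped a replicate 2 peak.

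The sequence under the main member peaks is given here because it shows which of them hold the word that GATA factors bind. Each line gives up to 50 bp either side of the summit, written 5′ to 3′ on the strand of the gene and read from RefSeq's WBcel235 (ce11) genome. At promoter summits, bases inside the gene and annotated untranslated bases were left out, which shortened gst-42, whose piece stops short of its summit, and gst-20. Capitals mark the GATA words, which are AGATAA as well as AGATAG, and likewise TGATAA as well as TGATAG, on either strand, and the word CTGCGTCT on either strand, which was picked out after these sequences were seen.
cyp-29A4, chrV:9654310-9654410, plus strand: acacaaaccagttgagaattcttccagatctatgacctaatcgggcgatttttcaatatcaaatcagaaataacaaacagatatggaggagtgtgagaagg
gst-42, chrX:11727937-11727974, minus strand: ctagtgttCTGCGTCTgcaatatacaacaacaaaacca
gst-27, chrII:15166010-15166110, minus strand: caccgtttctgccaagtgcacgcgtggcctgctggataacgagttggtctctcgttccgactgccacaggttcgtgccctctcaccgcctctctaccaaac
gst-20, chrII:13609825-13609897, minus strand: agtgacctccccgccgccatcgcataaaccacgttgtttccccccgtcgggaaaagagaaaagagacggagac
ugt-19, chrIV:6080058-6080158, minus strand: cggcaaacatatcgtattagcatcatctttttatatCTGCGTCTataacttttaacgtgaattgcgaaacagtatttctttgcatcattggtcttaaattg
ugt-58, chrII:9586989-9587089, minus strand: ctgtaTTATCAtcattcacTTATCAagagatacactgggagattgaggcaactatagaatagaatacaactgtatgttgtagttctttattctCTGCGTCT
ugt-20, chrIV:6083781-6083881, minus strand: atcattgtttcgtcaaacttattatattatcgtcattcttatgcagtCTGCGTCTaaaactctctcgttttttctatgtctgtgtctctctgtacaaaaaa
cyp-34A9, chrV:3970550-3970650, minus strand: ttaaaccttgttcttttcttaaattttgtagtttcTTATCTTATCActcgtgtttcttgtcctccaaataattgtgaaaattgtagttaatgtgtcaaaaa
ugt-64, chrV:3505902-3506002, minus strand: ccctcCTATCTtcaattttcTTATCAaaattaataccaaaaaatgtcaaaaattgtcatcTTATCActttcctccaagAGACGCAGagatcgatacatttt
cyp-14A5, chrV:5425264-5425364, minus strand: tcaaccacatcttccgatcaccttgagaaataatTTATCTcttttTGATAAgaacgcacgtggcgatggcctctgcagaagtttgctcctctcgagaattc
Within these pieces the GATA words sit near the summits of ugt-58, cyp-34A9, ugt-64 and cyp-14A5, and are lacking in those of cyp-29A4, gst-27, gst-20, ugt-19 and ugt-20. The gst-42 summit had 1 GATA word, outside its printed piece. Other members with an IDR peak are not printed, namely ugt-39, ugt-25 and cyp-36A1, with GATA words within 50 bp of the summit, and cyp-34A1, without one.

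Few members carried an IDR peak at the promoter, taken as a window reaching 1000 bp upstream and 200 bp downstream of the annotated 5′ end. Of the 184 members 9 did (4.89%, exact 95% interval 2.26 to 9.08), against 3.44% of all protein-coding genes. By family these were 2 of 74 cyp genes (2.70%, 0.329 to 9.42), 3 of 43 gst genes (6.98%, 1.46 to 19.1) and 4 of 67 ugt genes (5.97%, 1.65 to 14.6). The interval of each family holds the background share, so these counts do not separate any family from genes at large. Intervals cover counting error only, and genes of an array are not independent of each other. In all of these 9 genes the member had the nearest 5′ end of any protein-coding gene.

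**Figure D1:**
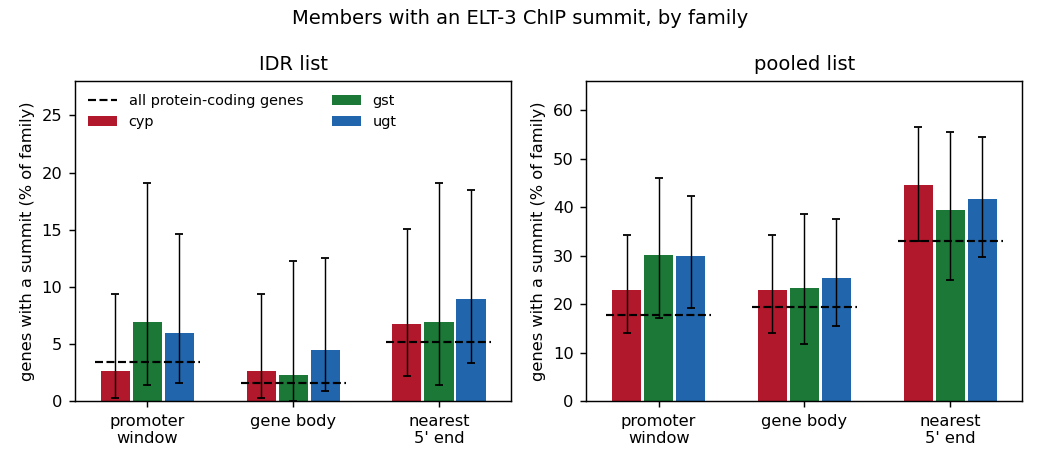
Share of cyp, gst and ugt genes (bars, % of the 74, 43 and 67 genes) with an ELT-3 summit in the promoter window, in the gene body or nearest to the 5′ end, for the IDR list (left) and the pooled list (right, other scale). Whiskers are exact 95% intervals and dashed lines the share of all 19973 protein-coding genes. In the pooled list all bars stand above the dashed lines, from 23% against 17.9% for cyp promoters to 44.6% against 33.1% for cyp nearest genes, and in the IDR list the cyp promoter bar stands below, a side it changes with a window of 500 bp upstream (2.7% against 2.61%).

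Among the P450 genes, cyp-29A4 had the strongest promoter peak of all members (WBcel235 V, 9654212 to 9654507, summit 395 bp upstream). Its signal was 84.2 in the IDR list, rank 101 of 1202, and 84.0 in replicate 1, and no replicate 2 peak overlapped it. There was no GATA word within 50 bp of the summit, though 2 lay within 100 bp. The summit also lies inside a short non-coding RNA gene, T06E4.16, 75 bp from its 5′ end, so the peak cannot be given to cyp-29A4 alone. The other promoter call, cyp-34A9, lay at the lower end of the list, with a signal of 36.3 (rank 1161) and of 35.7 in replicate 1. Its summit was 60 bp upstream (V, 3970452 to 3970747), with 2 overlapping GATA words. cyp-34A9 is 1 of 10 genes of the longest array, which runs from cyp-35A5 to cyp-34A10 and holds members of the cyp-35 and cyp-34 groups, known for induction by foreign compounds.

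A further 3 P450 genes had IDR peaks outside the promoter window. The peak of cyp-34A1 was the second strongest of all members, with a signal of 73.4 (72.9 in replicate 1). Its summit lay in coding sequence 1715 bp from the 5′ end (V, 15286093 to 15286388). No GATA word lay within 50 bp of the summit, though 2 lay within 100 bp. The annotation places the start of a small nuclear RNA gene, T10H4.16, 190 bp from that summit. cyp-36A1, which acts downstream of the hypoxia factor HIF-1, had an intron peak 1445 bp from its 5′ end (I, 8344430 to 8344725, signal 53.4, 54.6 in replicate 1) with 2 GATA words. cyp-14A5 had the nearest 5′ end to a peak 2032 bp upstream of it (V, 5425166 to 5425461, signal 60.9, 60.7 in replicate 1). That summit held 2 GATA words and lies within the long non-coding RNA gene linc-96 and the short non-coding gene F08F3.12.

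The 3 bound gst genes had similar signals. That of gst-42, the homologue of the maleylacetoacetate isomerase of tyrosine breakdown, was 68.0 (68.6 in replicate 1), that of gst-27 was 64.1 (65.2) and that of gst-20 was 62.5 (63.0). The gst-42 summit lay 12 bp inside the gene, in an untranslated exon (X, 11727776 to 11728071), with 1 GATA word, and 227 bp upstream of the gene D1053.2, which runs the other way. The gst-20 summit lay 23 bp upstream of the 5′ end (II, 13609699 to 13609994) and had no GATA word within 50 bp, though 2 lay within 100 bp. The gst-27 summit was 329 bp upstream (II, 15165912 to 15166207), with no GATA word within 100 bp, and stood 32 bp upstream of a small nucleolar RNA gene, Y53F4B.48, on the same strand. The DNA around the gst-20 and gst-27 summits was poor in A and T (43.6% and 40.6%), below the median of 52.5% for IDR promoter summits of all genes.

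The 4 bound ugt genes had weaker promoter peaks than the gst genes. The ugt-19 signal was 51.7 (52.1 in replicate 1), followed by ugt-58 at 43.0 (42.9), ugt-39 at 39.4 (39.6) and ugt-20 at 37.9 (38.1), and none of the 4 peaks was overlapped in replicate 2. ugt-19 and ugt-20 are neighbours on chromosome IV, with summits 156 bp and 231 bp upstream (IV, 6079960 to 6080255 and 6083683 to 6083978). Neither had a GATA word within 50 bp of the summit, though 1 lay within 100 bp at ugt-19, and both held CTGCGTCT. Genes of piRNAs, small RNAs of the germline, start 29 bp from the ugt-19 summit and 71 bp from the ugt-20 summit. The ugt-58 summit, 255 bp upstream (II, 9586891 to 9587186), and the ugt-39 summit, 48 bp inside the gene in an untranslated exon (V, 7157042 to 7157337), had 2 GATA words each. Intron peaks lay in ugt-25, 497 bp from its 5′ end (I, 4731955 to 4732250, signal 56.7, 57.2 in replicate 1), with 4 GATA words, and in ugt-64, 400 bp from its 5′ end (V, 3505804 to 3506099, signal 42.6, 43.2 in replicate 1), with 3. When the 5′ end of any annotated transcript was used, 5 of 67 ugt genes had an IDR promoter summit (7.46%), against 3.87% of all genes.

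Over all 3 ways of assigning peaks, 14 members had an IDR peak, each a peak of its own. Gene bodies of 6 members held an IDR summit (3.26%, background 1.65%), and 14 members had the nearest 5′ end to one (7.61%, background 5.18%). A GATA word lay within 50 bp of 8 of the 14 summits, among them 4 of 6 at ugt genes, 3 of 5 at cyp genes and 1 of 3 at gst genes. Over the whole IDR list the share was 38.9%. When genes of every kind were counted, the member was nearest to the summit in 8 of the 14, and a non-coding RNA gene was nearer at cyp-29A4, cyp-34A1, cyp-14A5, gst-27, ugt-19 and ugt-20. The like share over the whole IDR list is not given here, so this count cannot be read as a trait of member peaks. Replicate 2 overlapped 0 of these 14 peaks, against 9.73% of the whole IDR list, which is no separation at this number of peaks.

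The pooled list gave promoter summits to more members. Of 184 members 50 had one (27.2%, exact 95% interval 20.9 to 34.2), against 17.9% of all protein-coding genes. These were 17 cyp genes (23%, 14 to 34.2), 13 gst genes (30.2%, 17.2 to 46.1) and 20 ugt genes (29.9%, 19.3 to 42.3). The intervals of the ugt genes and of all members lie above the background, and those of cyp and gst hold it. They treat genes as independent, which genes of an array or under a shared peak are not. Of the called genes, 13 of the 20 ugt genes and 29 of the 50 members lie in arrays, so the intervals alone do not settle a difference. Without replicate 1 the ugt genes (5 of 67, 2.47 to 16.6%) and all members (13 of 184, 3.82 to 11.8%) have intervals that hold the background of 5.30%. The gst interval lies above the pooled background once that is weighted by the chromosomes of all 184 members (16.2%). A weighting by the chromosomes of the gst genes alone was not made. Gene bodies held a pooled summit in 44 members (23.9%, background 19.4%) and 78 members were nearest to one (42.4%, background 33.1%). In 14 of the 50 promoter calls the strongest summit had a q-value under 0.05 (28%), against 29.7% of the promoter calls of all genes. For 100 of the 184 members (54.3%) the pooled list held no summit in the promoter, in the gene body or nearest to the gene, against 61% of all protein-coding genes.

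**Figure D2:**
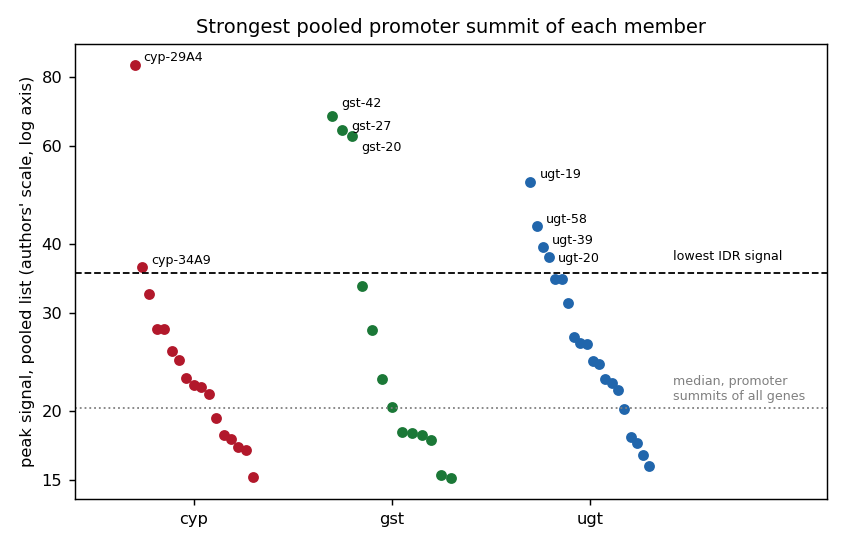
Signal of the strongest pooled promoter summit (log axis, authors' scale) of each of the 17 cyp, 13 gst and 20 ugt genes that had one, ordered within each family; genes above the dashed line, the lowest IDR signal of 35.5, are named. The 3 named gst genes stand apart from the next at 33.6, as cyp-29A4 at 84.2 does from cyp-34A9 at 36.3, while the ugt signals fall from 51.7 in smaller steps. The dotted line is the median of 20.2 over pooled promoter summits of all genes.

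The strongest promoter summits just outside the IDR list, against 36.3 for cyp-34A9 just inside it, were those of ugt-11 and ugt-9 under a shared peak (pooled signal 34.5, 33.5 in replicate 1, q = 0.00662), with the summit 78 bp upstream of ugt-9 and 899 bp upstream of ugt-11. gst-12 followed (33.6, 30.8 in replicate 1), then cyp-43A1 (32.4, 34.2 in replicate 1). Further P450 genes were cyp-33C6 and cyp-33C7 under a shared peak (28.1, 27.2 in replicate 1) and cyp-29A2 (25.6, 26.2 in replicate 1), and further gst genes were gst-24 (28, 28.4 in replicate 1) and gst-5 (22.8, 22.4 in replicate 1). Between rank 1203 and rank 2404, the next stretch of the pooled list as long as the IDR list, 12 members had their strongest promoter summit (6 ugt, 4 cyp and 2 gst genes, 6.52% of 184), against 2.99% of all protein-coding genes. Between ranks 2405 and 5000 there were 14 (7.61% against 4.79%) and beyond rank 5000 there were 15 (8.15% against 6.63%).

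Promoter summits of members lay close to the annotated 5′ end. The median position in the pooled list, with negative values upstream, was -76 bp over members (52 pairs of gene and summit) and -265 bp over all protein-coding genes (3817 pairs). The member pairs came from 50 summits and the pairs of all genes from 3149. Summits shared by several genes thus weigh more in the background, which was not taken into account. By family the median was -92 bp for cyp, -22 bp for gst and -92 bp for ugt. Of the 17 cyp pairs 14 lay within 500 bp upstream (82.4%), against 59.6% of all pairs, and of the 14 gst pairs 7 did (50%). The remaining gst pairs lay inside the gene or farther upstream. These shares rest on few pairs and carry no interval. The strongest gst peak lay inside the gene, and the strongest cyp and ugt peaks lay upstream.

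**Figure D3:**
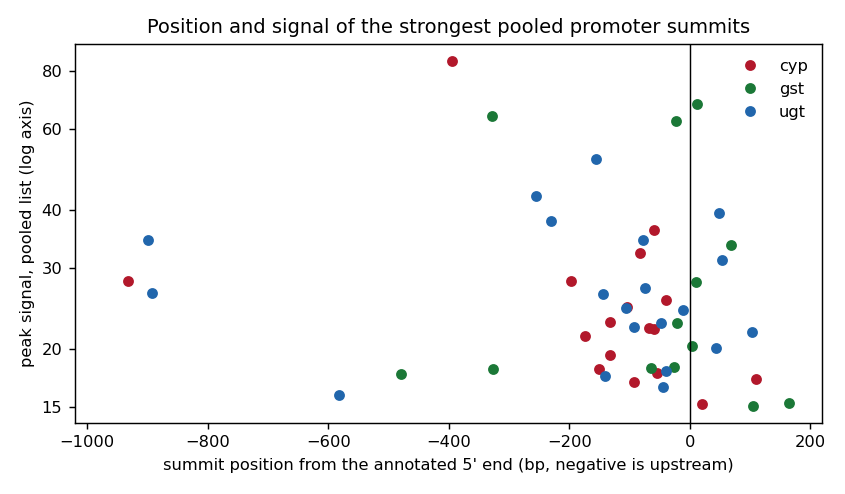
Position of the strongest pooled promoter summit from the annotated 5′ end (bp, negative is upstream) against its signal (log axis, authors' scale), 1 point per member with 17 cyp, 13 gst and 20 ugt genes. Points crowd just upstream of the 5′ end, where cyp and ugt pairs have a median of -92 bp, and the farthest, such as ugt-11 at -899 bp and cyp-33C6 at -933 bp, have signals of 34.5 or less.

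The GATA word was common at ugt summits. It lay within 50 bp of 13 of 20 pooled ugt promoter summits (65.0%, exact 95% interval 40.8 to 84.6), 7 of 16 cyp summits (43.8%, 19.8 to 70.1) and 3 of 14 gst summits (21.4%, 4.66 to 50.8). Over promoter summits of all protein-coding genes it was found at 882 of 3149 (28%). Without replicate 1 it was found at 0 of 5 ugt promoter summits (interval up to 52.2%) and at 15.4% of member summits, below the 23.9% of all genes. In windows 500 bp to either side, which were added once the data had been seen, the share was 27.5% for ugt, 21.9% for cyp, 14.3% for gst and 19.5% for all genes. The ugt summits were also richer in A and T, with a median of 64.9% within 50 bp against 59.4% over all genes. Their flanks had a median of 67.3%, against 64.4% over all genes. The part of base composition in the higher share was not tested.

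**Figure D4:**
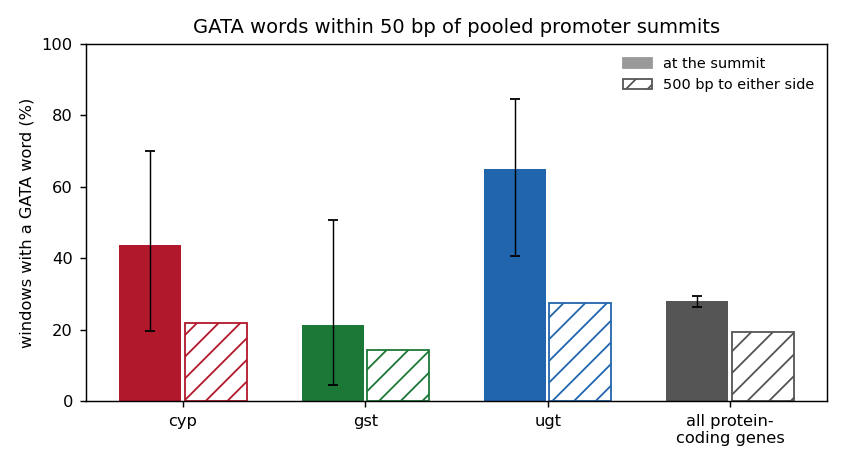
Share of pooled promoter summits with a GATA word on either strand within 50 bp (filled bars, % of 16 cyp, 14 gst, 20 ugt and 3149 summits of all protein-coding genes, with exact 95% intervals) and in windows of the same size 500 bp to either side (hatched). The ugt bar stands at 65.0% and its flanks at 27.5%, against 28% and 19.5% for all genes.

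Nearly all member promoters hold a GATA word somewhere, bound or not. Of the 184 promoter windows 179 had one (97.3%), against 93.3% of all protein-coding promoter windows. All 67 ugt and all 74 cyp windows had at least 1, with a median of 4 words in each family, while 5 of 43 gst windows had none and the gst median was 3, that of all genes. ugt-34 held 11 words and had no promoter summit in any list, as did cyp-35B3 with 10, cyp-33C5 with 9 and gst-26 with 5. ugt-4 held 10 and had a pooled summit with a signal of 16.6. ugt-43 with 10, cyp-35A2 with 9 and gst-6 with 6 were called in replicate 2 and in neither the IDR nor the pooled list. gst-20, with 6, was called in the IDR list, with none of them within 50 bp of its summit. Pooled promoter summits were found at 0 of 5 members without the word, 12 of 48 with 1 or 2 words (25%), 23 of 68 with 3 or 4 (33.8%) and 15 of 63 with 5 or more (23.8%). Over all protein-coding genes these shares were 16.5%, 17.3%, 17.4% and 19.9%.

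More members lie in arrays than alone. With a gap of at most 10000 bp between genes of a family, 105 members formed 27 arrays and 79 stood alone. Pooled promoter summits were found at 29 of the 105 (27.6%) and at 21 of the 79 (26.6%), against 17.9% of all genes. The counts of single arrays are given as descriptions, without a test between them, and the shared peaks of ugt-9 with ugt-11 and of cyp-33C6 with cyp-33C7 count for both genes. The ugt array from ugt-12 to ugt-13 on chromosome V (4887165 to 4911399) had pooled promoter summits at 5 of 8 genes, namely ugt-12, ugt-11, ugt-9, ugt-8 and ugt-13, and 0 in the IDR list. The cyp-33C array had 3 of 5, the cyp-13A array 3 of 8 and the array that holds cyp-34A9 2 of 10. The 2 large gst arrays on chromosome II had 3 of 9, led by gst-20, and 2 of 9, led by gst-27. Of the P450 groups, the 10 cyp-35 genes and the 5 cyp-25 genes had 0 promoter summits in the IDR and pooled lists, and 5 of 18 cyp-33 genes and 3 of 8 cyp-34 genes had one in the pooled list, numbers too small to set against the 17.9% of all genes. How reads that match several copies were placed is not given in the sources used here, so counts within arrays of near-identical genes are uncertain.

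Summits inside member genes lay mostly in exons. Of 48 pairs of member and pooled gene body summit 14 lay in an intron (29.2%), against 52.7% of 5652 pairs over all protein-coding genes, 22 lay in coding sequence and 12 in untranslated exons. By family 0 of 11 gst pairs, 5 of 18 cyp pairs and 9 of 19 ugt pairs were intronic. The gst genes are short, with a median length of 1315 bp against 2027 bp over all genes, and intron length was not taken into account.

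Chromosome V carries 92 of the 184 members (50%) and is poor in promoter peaks over all genes. On V, 3 members had an IDR promoter summit (3.26%) against 2.16% of all genes of V, and 25 had a pooled one (27.2% against 14.4%). On II, which holds 25 of the 43 gst genes, 3 of 38 members had an IDR summit (7.89% against 2.87%) and 13 a pooled one (34.2% against 16.7%). On IV the pooled share was 18.2% against 15.3%, and on III 1 of 10 members was called (10% against 20.4%). Weighted by the chromosomes of the members, the background was 2.81% in the IDR list and 16.2% in the pooled list.

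The nuclear peaks of replicate 2 gave a promoter summit to 13 members (7.07%, background 5.30%), led by cyp-33C9 (signal 4.39), gst-22 (4.29), ugt-40 (4.16) and cyp-35A2 (4.04), genes that were named here after their values were seen. They hold 0 of the 9 members of the IDR list, beside 10.2% of the 688 genes with an IDR promoter summit, which leaves no difference to be read at 9 genes. Of the 13, 3 were also replicate 1 calls (cyp-33C9, gst-22 and gst-6, 23.1%), against 24.8% over all genes. Replicate 1 gave 52 members (28.3%, background 18.7%), with gene body summits in 41 (22.3%, background 20.6%) and nearest summits at 79 (42.9%, background 34.6%). Of its 52 promoter calls 48 were among the 50 of the pooled list. gst-22 and ugt-40 were the only members with a promoter summit in both the pooled and the replicate 2 lists, with pooled signals of 15.3 and 15.9. They are 4% of the 50 and 15.4% of the 13 calls, against 7.74% and 26.1% over all genes. ugt-25, which has an intron peak in the IDR list, had a replicate 2 promoter summit elsewhere, 529 bp upstream of its 5′ end (signal 3.95). Gene bodies of 25 members held a replicate 2 summit (13.6%, background 10.9%) and 34 members were nearest to one (18.5%, background 16.3%). Of the replicate 2 promoter summits of members 2 of 13 had a GATA word (15.4%), against 23.9% over all genes.

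Other genes of the detoxification pathway were taken from a list of 60 annotated genes, written from textbook knowledge with earlier results of these data known. Its shares are descriptions without intervals, so a difference from all genes cannot be read from them. In the IDR list 2 of 60 had a promoter summit (3.33%, background 3.44%), and 8 with a window of 2000 bp upstream (13.3%, background 4.85%). The 2 were mrp-2, an ABC transporter of the multidrug resistance type, with a signal of 50.3 at 730 bp upstream (50.6 in replicate 1), and wdr-23, a repressor of the stress factor SKN-1, with a signal of 125 (124 in replicate 1). In the pooled list 17 had one (28.3%, background 17.9%). Among them was emb-8, the reductase that passes electrons to P450 enzymes (signal 29.6, 27.9 in replicate 1, pooled q = 0.0345). Also among them were gss-1, the glutathione synthetase gene (17.9, 18.1 in replicate 1, pooled q = 0.683), and 6 of 9 genes of other oxidising and hydrolysing enzymes. The pooled q-values of those 6 ran from 0.0123 to 0.81, so these calls include weak entries of the list. Of the 22 ABC transporter genes 3 had a pooled summit, as had 3 of 12 genes of other conjugating enzymes and 3 of 13 regulators. The glutamate-cysteine ligase gene gcs-1 and skn-1 had no promoter summit in any of the 4 lists. These 4 genes, emb-8, gss-1, gcs-1 and skn-1, were named after their values were seen.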

How the data were processed

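ELT-3 ChIP-seq peaks of whole L1 larvae were taken from the lists the authors deposited: an IDR list, a pooled list and 1 list for each of 2 biological replicates. Per the labels, replicate 2 comprised 2 technical libraries, which were counted as 1 replicate. Each deposited peak carries the authors' signal and a −log10 q-value, from which q was computed. The aligner and the peak caller with its settings: not given in the sources used here. Read depth is unknown. Lists in the ce10 build and the control experiment were not used here, and 25 mitochondrial replicate 2 peaks were left out.

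The summit (peak start plus offset) was placed against Ensembl release 115 genes on WBcel235, the same assembly as ce11, in the promoter window (1000 bp upstream, 200 bp downstream), in the gene body, and at the nearest 5′ end of a protein-coding gene. GATA words, which are AGATAA as well as AGATAG, and likewise TGATAA as well as TGATAG, were counted on either strand, overlaps included, within 50 bp of summits, read from the RefSeq WBcel235 genome. Peaks overlapped when they shared at least 1 bp. Exact (Clopper-Pearson) 95% intervals cover counting error only. No test between groups was made, since there was 1 group. The counting was tested on simulated data. Python 3.11.15, scipy 1.17.1, numpy 2.4.6 and matplotlib 3.10.9 were used.

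Genes named were every member with an IDR promoter, gene body or nearest summit, up to 6 members per family with the highest pooled promoter signal, the 3 members per family with the most GATA words, other detoxification genes with an IDR promoter summit, and genes sharing a peak. Others are said to be named after their values were seen. The members and lists were chosen with earlier results of these data known. Alternatives were other promoter windows, the stronger part of each list, each replicate left out, other GATA words and windows, and a background weighted by chromosome. After the data were seen, flanks 500 bp from summits and the word CTGCGTCT were added.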

Additional observations from a re-analysis of the deposited data

How the results depend on the processing

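Counts depended most on the peak list. With only the stronger part of each list, the IDR promoter calls were 5 members (2.72%, against 1.83% of all genes), with 1 ugt (1.49%) and 1 cyp gene (1.35%). Those nearest to an IDR summit were 9 (4.89% against 2.77%) and pooled gst promoter calls 7 (16.3% against 11.3%). Pooled gene body calls were 20 (10.9% against 8.78%) and pooled nearest calls 45 (24.5% against 18.5%). Each replicate was left out in turn, with the other replicate's own list in its place (its strongest 1202 peaks for the IDR list). Without replicate 2, IDR promoter calls were 9 (4.89%, against 3.45% of all genes), gene body calls 6 (3.26% against 1.66%) and nearest calls 15 (8.15% against 5.19%). Without replicate 1 they were 6 (3.26% against 1.57%), 12 (6.52% against 3.64%) and 19 (10.3% against 5.32%). By family, IDR promoter calls were 2 to 3 gst, 2 to 4 ugt and 2 to 2 cyp genes. For the pooled list without replicate 2, promoter calls were 52 (28.3%, against 18.7% of all genes), gene body calls 41 (22.3% against 20.6%) and nearest calls 79 (42.9% against 34.6%). Without replicate 1 they were 13 (7.07% against 5.3%), 25 (13.6% against 10.9%) and 34 (18.5% against 16.3%). By family, these promoter calls were 4 to 14 gst, 5 to 21 ugt and 4 to 17 cyp genes. The GATA share at member promoter summits was 49.1% without replicate 2 (27.5% of all genes) and 15.4% without replicate 1. The lowest promoter values came without replicate 1. With a window reaching 2000 bp upstream, 27 cyp genes had a pooled promoter summit (36.5%, against 25.3% of all genes). The other detoxification genes then had 8 in the IDR list (13.3% against 4.85%) and 27 in the pooled list (45% against 25.3%). With 500 bp upstream and 100 bp downstream they had 1 in the IDR list (1.67% against 2.61%), and 88.6% of member windows held a GATA word (76.9% of all genes). With TGATAA alone the shares were 81.5% of member windows (72.0% of all genes) and 28% of pooled member summits (15.1% of all genes). With all 4 words within 100 bp of the summit the latter was 68.0% (44.2% of all genes). Weighting by chromosome moved the background to 2.81% (IDR) and 16.2% (pooled). Another 62 values stayed within 1.5 times or within their interval. Of 80 shares set against all genes 5 changed side. The cyp IDR promoter share of 2.7% lay above that of all genes with 500 bp upstream (2.61%), with nearest 5′ ends only (2.61%) and without replicate 1 (1.57%). The ugt share fell below it in the stronger part (1.49% against 1.83%), and that of other detoxification genes rose above it with 2000 bp upstream (13.3% against 4.85%). The GATA share at member summits also changed side without replicate 1 (15.4% against 23.9%). The cause of these shifts was not tested beyond the shorter lists and changed windows themselves. No paired analysis was possible because there was 1 group. Without read counts, a peak that is missing from a list cannot be told from one under its detection limit.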

Other observations

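The word CTGCGTCT, on either strand, was looked for after it was seen in several printed sequences, so its values are descriptions. It lay within 50 bp of 5 of the 14 IDR summits at or near members (35.7%), at gst-42, ugt-19, ugt-20, ugt-58 and ugt-64. The word was picked from sequences of these same summits, so that share was raised by the choice and measures no enrichment. Over the whole IDR list it was found at 104 of 1202 summits (8.65%), and at 54 of 530 promoter summits (10.2%). At pooled promoter summits it was found for 6 of 50 of members (12%) and 164 of 3149 of all genes (5.21%), and over replicate 2 summits for 27 of 4055 (0.666%). Whole promoter windows held it in 22 of 184 members (12%) and in 8.63% of all genes. Both member shares include the 4 promoter summits at gst-42, ugt-19, ugt-20 and ugt-58. The choice of the word raised these shares too, and they measure no enrichment. No cyp summit among the 14 held it.

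Genes of the annotated biotype ncRNA, which leaves out snoRNA, tRNA, piRNA and snRNA genes, cover 95 of the 1202 IDR summits (7.90%), among them those at cyp-29A4 and cyp-14A5.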
